A study of Mus musculus with 8 samples.

Results

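The genes described here are 10 transcription factor genes, of 24063 genes in the deposited tables, from 4 DNA-binding families: *Gata2* and *Gata3* of the GATA family, *Tfap2a* and *Tfap2b* of the AP-2 family, *Ehf*, *Elf3* and *Elf5* of the ETS family, and *Grhl1*, *Grhl2* and *Grhl3* of the grainyhead family. They were chosen by gene symbol, with earlier results of these data known. RNA-Seq was performed on 8 cultures of mouse tubuloids, epithelial spheroids and tubules that form when kidney tubule fragments are grown in Matrigel. All 8 cultures, controls included, were derived from kidneys of mice at postnatal day 7 to 10 by the labels (the study's methods give a younger range) that carried *Pkd2*fl/fl, *Pax8*rtTA, TetOCre and mTmG. In that model a *Pax8* promoter, which is active in renal epithelium, drives the transactivator for an inducible Cre, and the labels name no doxycycline, its inducer, for these cultures. Cultures GDNF 6, 12, 17 and 22 (n = 4) received a 24 h pulse of glial-derived neurotrophic factor (GDNF) in growth factor medium, control cultures 3, 7, 14 and 21 (n = 4) received the same kind of medium without it, and all were collected after 7 days. The comparison asks whether the pulse, a signal that acts on ureteric bud epithelium, went with other levels of these factors.

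GATA factors bind DNA through zinc fingers, and GATA3 is required for the nephric duct and its later branches, where it acts upstream of the GDNF receptor gene *Ret*. AP-2 factors bind GC-rich palindromes, and TFAP2A and TFAP2B are found in the distal nephron and collecting duct lineage. EHF, ELF3 and ELF5 form the epithelium-specific branch of the ETS family, whose members share a winged helix domain that binds a GGA core. Grainyhead factors hold epithelia together by activating genes of adherens and tight junctions, and GRHL2 is the member best known for this in kidney ducts.

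Transcript counts totalled between 72991721 and 97490625 per culture, so counting error was small for every member but *Elf5*. Levels are given as TPM, the authors' transcript abundance normalized for length and library total, for the transcript of each gene with the highest mean count. TPM has no correction for composition, and over the 13698 genes whose mean was 1 TPM or more the median log2 change from control to GDNF was 0.40. The TMM factors, which correct for composition, were 0.790 to 0.982 in controls and 1.07 to 1.11 in GDNF cultures. They did not overlap between the groups, so a group difference depends on whether levels are scaled by them. Control 3 stood apart, with a factor of 0.790 against 0.963 to 1.11 in the other cultures. E-cadherin (*Cdh1*) was between 7.12 and 57.5 TPM and *Epcam* between 66.0 and 199 TPM in the 8 cultures, so that both epithelial markers were present throughout. The geometric mean of 13 epithelial marker genes was lowest in control 14 (23.6 TPM), next in GDNF 17 (47.3 TPM), and 62.5 to 118 TPM in the other 6 cultures. Stromal RNA was present in every culture (*Vim* 172 to 338 TPM, *Col1a1* 12.3 to 178 TPM), and the 10 stromal markers summed to their highest value, 3117 TPM, in control 14. The collecting duct water channel *Aqp2* was between 0 and 0.356 TPM, and 4 of the 11 collecting duct markers, *Aqp2* among them, had a mean below 1 TPM. *Avpr2*, *Hsd11b2*, *Scnn1b* and *Scnn1g* had means between 1.06 and 3.02 TPM. *Fxyd4* (4.95 to 69.3 TPM), *Calb1* (1.23 to 43.2 TPM) and *Krt7* (115 to 1079 TPM), the last also a general epithelial marker, were higher. The urothelial markers *Upk1b* and *Trp63* did not exceed 0.406 and 0.456 TPM. In whole cultures, fewer cells of a type and less RNA per cell cannot be told apart.

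*Elf3* was the most abundant member, with a mean over the 8 cultures of 73.5 TPM, a level exceeded by 7.51% of the genes detected in any culture. *Gata3* (16.3 TPM), *Ehf* (15.9 TPM) and *Gata2* (10.6 TPM) came next, and *Grhl2* followed at 6.45 TPM. *Tfap2a* (2.63 TPM), *Tfap2b* (2.12 TPM), *Grhl1* (1.89 TPM) and *Grhl3* (1.28 TPM) lay close together, and *Elf5* was last at 0.149 TPM. A shorter *Tfap2b* transcript (3831 against 6167 bp) had similar counts (698 against 771 in control 3). Its level was 0.546 to 6.57 TPM over the cultures, against 0.392 to 4.73 TPM for the one used. The place of *Tfap2b* in this order and its ratio to *Tfap2a* thus depend on the transcript used. Of the 9 pairs of neighbours in this order, 4 differed beyond their spread within cultures: *Elf3* and *Gata3*, *Gata2* and *Grhl2*, *Grhl2* and *Tfap2a*, and *Grhl3* and *Elf5*. In each of these pairs the first gene was higher in 8 of 8 cultures (exact sign-flip permutation test, two-sided, p = 0.00781, the smallest 8 cultures can give, and 0.0176 after Benjamini-Hochberg adjustment over the 9 pairs). The other 5 pairs did not pass, with adjusted p between 0.127 and 0.898 in the same exact test. No step in the order separated *Gata2* from *Gata3* or *Tfap2a* from *Tfap2b*, whereas steps lay between *Elf3*, *Ehf* and *Elf5* and between *Grhl2* and the other grainyhead genes.

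**Figure D1:**
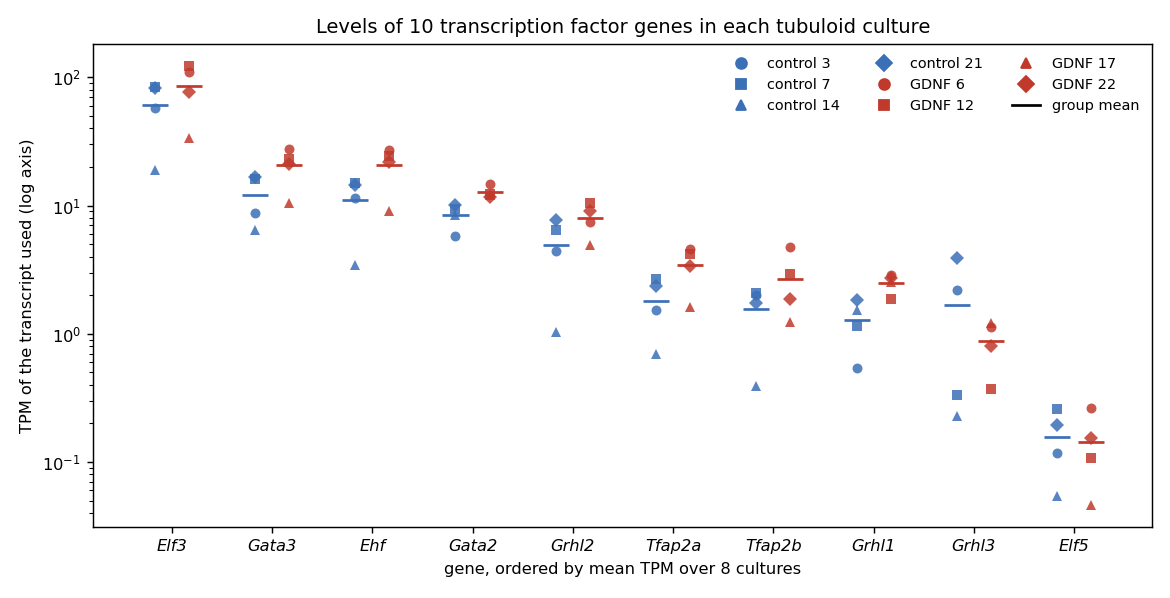
TPM on a log axis (vertical) of the 10 genes (horizontal, ordered by mean TPM) in each control (blue) and GDNF (red) culture, with group means as lines. *Elf3* lies at the top with 18.8 to 123 TPM and *Elf5* at the bottom with 0.0463 to 0.264 TPM, and the triangles of control 14 and GDNF 17 are the lowest points of their group for *Elf3*, *Gata3*, *Ehf*, *Grhl2*, *Tfap2a* and *Tfap2b*.

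In the GATA family, *Gata2* (chr6:88193891-88207032, RefSeq annotation of GRCm38.p6) was nearly flat across cultures while *Gata3* (chr2:9857078-9887953) was not. *Gata2* was at 5.81, 9.37, 8.40 and 10.2 TPM in control cultures 3, 7, 14 and 21 and at 14.6, 12.2, 12.2 and 11.7 TPM in GDNF cultures 6, 12, 17 and 22. Every GDNF culture was above every control in this unit, and the means were 8.44 ± 1.91 and 12.7 ± 1.32 TPM (SD, n = 4, exact permutation test, two-sided, p = 0.0286, the smallest 4 against 4 cultures allow), a separation that 23.4% of genes showed in TPM. It did not hold once composition was taken into account: in TMM-scaled CPM (counts relative to library size, with a factor for composition), *Gata2* was at 17.8 ± 1.48 in controls and 20.7 ± 3.22 in GDNF cultures, the groups overlapped (exact permutation test, p = 0.143), and the log2 fold change was 0.22 ± 0.16 (SE), or 0.11 without GDNF 6. *Gata3*, the duct factor, was at 8.83, 16.1, 6.48 and 16.7 TPM in controls 3, 7, 14 and 21 and at 27.4, 23.0, 10.6 and 21.3 TPM in GDNF 6, 12, 17 and 22. The GDNF mean (20.6 ± 7.15 TPM) was 1.71-fold the control mean (12 ± 5.14 TPM), but GDNF 17 lay below controls 7 and 21 and the exact permutation test gave p = 0.114. With TMM scaling the log2 fold change of *Gata3* was 0.41 ± 0.34 (SE), and it was 0.19 without control 14, 0.19 without GDNF 6 and 0.63 without GDNF 17.

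The 250 bases before the start of the *Gata3* transcript measured are shown because they hold 3 palindromes of the form GCCNNNGGC, the AP-2 consensus. They precede the start of that transcript only and lie inside the gene interval given above. The window is chr2:9878601-9878850, minus strand, from the RefSeq promoter table of GRCm38.p6, and capitals mark the palindromes, which begin at positions -246, -231 and -221 from the start.
*Gata3* upstream: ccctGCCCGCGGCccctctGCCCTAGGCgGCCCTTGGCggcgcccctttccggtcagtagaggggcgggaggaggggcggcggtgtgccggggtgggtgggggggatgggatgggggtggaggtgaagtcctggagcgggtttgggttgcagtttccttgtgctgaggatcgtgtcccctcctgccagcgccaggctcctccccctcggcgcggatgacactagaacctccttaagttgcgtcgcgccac
Of 32851 promoters of this length, 13.7% hold at least one such palindrome. The palindrome is rich in G and C, and this window is 70% GC, against a median of 52.4% over all promoters in the table. The GATA motif AGATAA (9.99% of promoters), the ETS motif CAGGAAG (10.8%) and the grainyhead motif AACCGGTT (0.116%) are not in this window on either strand. Of the 10 members, 8 had a promoter in the table, *Ehf* and *Grhl2* having none. The window of *Tfap2a* lies 3352 bp from the start of the transcript measured, so it does not stand for that transcript. The AP-2 palindrome occurs in the windows of *Gata2*, *Gata3* and *Grhl1*, and none of the other 3 motifs occurs in any of the 8 windows. The start of *Gata2* in the table is 330 bp from that of the transcript measured, and its window lies wholly within annotated exons. The windows with the palindrome were at 74%, 70% and 75.6% GC, and the others between 46.4% and 60.4%. By the profile distance defined further on, *Tfap2a* lay 0.28 from *Gata3*, 0.74 from *Gata2* and 0.91 from *Grhl1*, and *Tfap2b* 0.54 from *Gata3*. Whether AP-2 factors act on any of these genes was not tested.

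Both AP-2 genes were low, and both varied widely among cultures of one group. *Tfap2a* (chr13:40713802-40738238) was at 1.53, 2.67, 0.699 and 2.36 TPM in controls 3, 7, 14 and 21 and at 4.57, 4.19, 1.61 and 3.40 TPM in GDNF 6, 12, 17 and 22. Only GDNF 17 fell within the control range, the means were 1.82 ± 0.887 and 3.44 ± 1.32 TPM (exact permutation test, p = 0.114). *Tfap2b* (chr1:19208908-19238845), which is needed for late differentiation of the distal tubule, was at 2.02, 2.08, 0.392 and 1.73 TPM in controls 3, 7, 14 and 21 and at 4.73, 2.91, 1.24 and 1.88 TPM in GDNF 6, 12, 17 and 22. Here GDNF 17 and GDNF 22 both lay below control 3 and control 7, and the means of 1.56 ± 0.790 and 2.69 ± 1.52 TPM did not differ beyond the spread (exact permutation test, p = 0.257). The TMM-scaled log2 fold changes were 0.60 ± 0.46 (SE) for *Tfap2a* and 0.36 ± 0.55 for *Tfap2b*. That of *Tfap2a* was 0.30 without control 14 and 0.37 without GDNF 6. That of *Tfap2b* was 0.03 without control 14, became -0.10 without GDNF 6, and was 0.70 without control 3 and 0.60 without GDNF 17. The highest and lowest cultures differed 6.53-fold for *Tfap2a* and 12.1-fold for *Tfap2b*, against 2.52-fold for *Gata2*.

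Among the epithelial ETS genes, *Elf3* and *Ehf* were well expressed and *Elf5* hardly at all. *Elf3* (chr1:135253574-135258472), an ETS factor of simple epithelia that responds to inflammatory signals, was at 57.8, 83.6, 18.8 and 82.4 TPM in controls 3, 7, 14 and 21 and at 111, 123, 33.5 and 77.5 TPM in GDNF 6, 12, 17 and 22. GDNF 17 and GDNF 22 lay inside the control range, and the means of 60.7 ± 30.3 and 86.3 ± 40.1 TPM were not separated (exact permutation test, p = 0.343). Its TMM-scaled log2 fold change of 0.11 ± 0.49 (SE) was the smallest of the 10 in size, and it turned to between -0.19 and -0.07 when control 14, GDNF 6 or GDNF 12 was left out, and was 0.38 without GDNF 17. *Ehf* (chr2:103263431-103303275), a related factor of ductal and glandular epithelia, was at 11.4, 14.9, 3.45 and 14.5 TPM in controls 3, 7, 14 and 21 and at 27.3, 24.6, 9.09 and 22.1 TPM in GDNF 6, 12, 17 and 22. All GDNF cultures but number 17 exceeded all controls, the means were 11.1 ± 5.31 and 20.8 ± 8.06 TPM (exact permutation test, p = 0.114). The log2 fold change of *Ehf* with TMM scaling was 0.50 ± 0.46 (SE), and it fell to 0.19 without control 14 and to 0.30 without GDNF 6.

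*Elf5* (chr2:103412098-103450989), a regulator of mammary alveoli and trophoblast, lies 108822 bp beyond *Ehf* on the same chromosome with no annotated protein-coding gene in between. Despite this position, the mean TPM of *Ehf* was 106-fold that of *Elf5*. *Elf5* rested on 16, 34, 7 and 21 counts of its transcript in controls 3, 7, 14 and 21 and on 29, 12, 5 and 13 counts in GDNF 6, 12, 17 and 22, which came to 0.156 ± 0.0888 TPM in controls and 0.143 ± 0.0918 TPM in GDNF cultures (exact permutation test, p = 0.8). At this depth no difference was detectable, and the sign of the TPM difference turned when control 7, control 21 or GDNF 17 was left out.

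The 3 grainyhead genes had 3 different patterns. *Grhl1* (chr12:24572232-24617391), known for its role in desmosomes of the epidermis, was at 0.545, 1.15, 1.54 and 1.85 TPM in controls 3, 7, 14 and 21 and at 2.90, 1.88, 2.54 and 2.70 TPM in GDNF 6, 12, 17 and 22. The lowest GDNF culture (number 12) was just above the highest control (number 21), the means were 1.27 ± 0.561 and 2.51 ± 0.443 TPM, and the exact permutation test gave p = 0.0286. In CPM the values were 5.37 ± 1.79 and 8.38 ± 1.70, with overlap of GDNF 12 and controls 14 and 21 (exact permutation test, p = 0.0857). The log2 fold change was 0.64 ± 0.28 (SE, adjusted p = 0.220 in edgeR's quasi-likelihood test). *Grhl2* (chr15:37232821-37363569), the junction regulator, was at 4.44, 6.47, 1.04 and 7.79 TPM in controls 3, 7, 14 and 21 and at 7.5, 10.4, 4.97 and 9.03 TPM in GDNF 6, 12, 17 and 22. Control 14 was far below the rest, the other controls overlapped GDNF cultures 6 and 17, and the means were 4.93 ± 2.94 and 7.97 ± 2.33 TPM (exact permutation test, p = 0.171). The TMM-scaled log2 fold change of *Grhl2*, 0.30 ± 0.48 (SE), turned to -0.04 without control 14 and was 0.14 without GDNF 12, 0.46 without control 21 and 0.47 without GDNF 17.

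*Grhl3* (chr4:135541887-135573632), which acts in epidermal barrier formation, did not follow the others. It was at 2.21, 0.331, 0.228 and 3.92 TPM in controls 3, 7, 14 and 21 and at 1.14, 0.373, 1.21 and 0.801 TPM in GDNF 6, 12, 17 and 22. In TPM, controls 3 and 21 were above every GDNF culture and controls 7 and 14 below every one, so that the GDNF values lay inside the gap between them, and the means of 1.67 ± 1.75 and 0.881 ± 0.383 TPM did not differ beyond the spread (exact permutation test, p = 0.457). In CPM control 7 (0.574) was above GDNF 12 (0.519), and it was also above it in rescaled TPM. The highest and lowest culture differed 17.2-fold in TPM, the widest range of the 10 genes. Controls 3 and 21 were also the cultures with the highest geometric mean of epithelial markers, at 93.3 and 118 TPM, and whether this had a part in the *Grhl3* values was not tested.

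The upstream windows of *Grhl1* and *Grhl3*, the pair of members whose profiles over the cultures were farthest apart, are shown for comparison. That of *Grhl1* is chr12:24572037-24572231 on the plus strand, which leaves out bases inside the annotated gene, and that of *Grhl3* is chr4:135573633-135573882 on the minus strand (RefSeq, GRCm38.p6). Capitals mark an AP-2 palindrome, which begins at position -82 from the table's start of *Grhl1*.
*Grhl1* upstream: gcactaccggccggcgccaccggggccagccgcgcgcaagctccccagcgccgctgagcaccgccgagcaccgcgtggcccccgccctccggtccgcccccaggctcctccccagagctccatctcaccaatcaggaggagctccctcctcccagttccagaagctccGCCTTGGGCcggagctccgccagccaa
*Grhl3* upstream: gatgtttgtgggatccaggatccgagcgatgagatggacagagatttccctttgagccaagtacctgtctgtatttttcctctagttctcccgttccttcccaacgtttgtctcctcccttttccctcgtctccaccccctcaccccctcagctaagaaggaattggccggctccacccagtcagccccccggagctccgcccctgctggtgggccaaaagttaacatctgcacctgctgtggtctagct
The full 250-base windows had a GC content of 75.6% for *Grhl1* and 56.0% for *Grhl3*, against a median of 52.4% over all promoters in the table. Neither window holds the grainyhead, GATA or ETS motif.

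When all 10 genes were set against the background of 16557 genes tested with edgeR (TMM, quasi-likelihood test), no member passed an adjusted p of 0.05, and neither did any other gene (0% called). The members' adjusted p-values lay between 0.220 and 0.909. At an unadjusted p of 0.05 the count was 1 member, *Grhl1*, against 22.1% of all genes in either direction and 9.25% in the direction of higher values, so 1 of 10 was near the background. With control 14 and GDNF 17, the cultures lowest in epithelial markers, both left out, the 2 members *Ehf* (higher) and *Grhl3* (lower), were under an unadjusted p of 0.05 and *Grhl1* was not, against 16.4% of all genes in that fit, so 2 of 10 was near the background too. DESeq2 called 9.02% of its 11724 genes at an adjusted p of 0.05 but none of the members, and 1 member at an unadjusted p of 0.05, where it called 19.8% of all genes. The log2 fold change was above 0 for 8 of the 10 members, against 52.5% of all genes with a higher mean CPM, with *Elf5* (-0.51 ± 0.65, SE) and *Grhl3* (-1.34 ± 0.83) as the exceptions. *Elf5* ranged from -1.05 without GDNF 6 to -0.22 without GDNF 17, and *Grhl3* was -0.77 without control 21 and -0.38 with limma-voom. The median over the members was 0.33, against 0.03 over all genes tested. In TPM, 2 members did not overlap between the groups, *Gata2* and *Grhl1*, against 23.4% of genes with higher values in that unit, and after TPM was rescaled for composition the count was 0 members, against 7.01% of genes, and in CPM it was also 0, against 6.99%. Correcting for length and GC content of the transcripts brought the log2 fold changes of *Gata2*, *Grhl2* and *Tfap2b* to 0.06, 0.04 and 0.00.

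**Figure D2:**
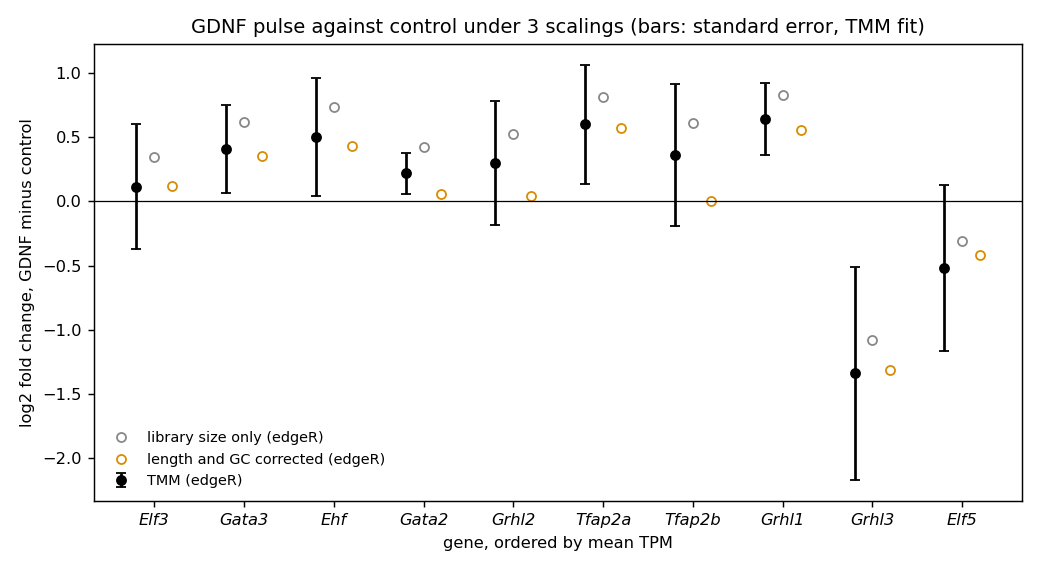
Log2 fold change from control to GDNF (vertical) of the 10 genes (horizontal, ordered by mean TPM) from edgeR with TMM (black, bars are 1 standard error), without composition scaling (grey) and after a length and GC correction (orange). With TMM, 8 genes lie above 0, between 0.11 and 0.64, and *Grhl3* lies lowest at -1.34 with the widest bar, while the estimate of *Tfap2b* falls to 0.00 with the correction.

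The cultures fell into 2 kinds by whether *Xist* or Y-linked RNA was the higher, with 2 cultures of each kind in each group. In edgeR's test of the interaction between the pulse and the kind, 0% of genes passed an adjusted p of 0.05, and at an unadjusted p of 0.05 there were 0 members against 0.568% of genes. Within each kind, *Grhl1* was higher in both GDNF cultures than in both controls in CPM, as 1 of 10 members. The same held for 11.5% of all genes. Permuting within the kinds allows 36 assignments and no p below 0.0556, so that test could not pass 0.05.

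Ratios between family members within a culture do not depend on scaling between cultures, and 6 such ratios were compared. They can still depend on a length bias that differs between cultures. *Ehf* to *Elf3* was the ratio that separated the groups. It was 0.197, 0.178, 0.184 and 0.176 in controls 3, 7, 14 and 21 and 0.246, 0.20, 0.271 and 0.285 in GDNF 6, 12, 17 and 22, so that every GDNF culture had more *Ehf* per *Elf3* than every control. The 4 controls lay close together although their *Elf3* level ranged from 18.8 to 83.6 TPM. The mean log2 ratio was higher by 0.44 in the GDNF cultures (exact permutation test, two-sided, p = 0.0286), and after Benjamini-Hochberg adjustment over the 6 ratios p was 0.171. GDNF 12 and control 3 were nearly alike, and leaving out any 1 control raised the unadjusted p of the exact test to 0.0571. The transcripts used differ in length, 4387 bp for *Ehf* and 2000 bp for *Elf3*. Their log2 fold changes of 0.50 and 0.11 with TMM became 0.33 and 0.19 after the length correction. After the length and GC correction they were 0.43 and 0.12. The ratio itself was not tested with either correction.

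*Gata2* to *Gata3* was between 0.532 and 0.658 in 6 cultures, with more *Gata3* than *Gata2*, and the order was reversed in control 14 (1.30) and GDNF 17 (1.15). These were also the cultures with the lowest epithelial and the highest stromal marker sums of their groups, and the part of that in the ratio was not tested. The groups overlapped in this ratio (exact permutation test, p = 0.457 before adjustment). *Grhl1* to *Grhl2* was 1.48 in control 14 and between 0.123 and 0.511 in the other 7 cultures (exact permutation test, p = 0.914). *Grhl3* to *Grhl2* ranged from 0.0359 in GDNF 12 to 0.503 in control 21 (p = 0.286), *Tfap2a* to *Tfap2b* from 0.758 in control 3 to 1.81 in GDNF 22 (p = 0.686), and *Elf5* to *Elf3* never exceeded 0.0031 (p = 0.0857, all 3 by the same exact test).

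**Figure D3:**
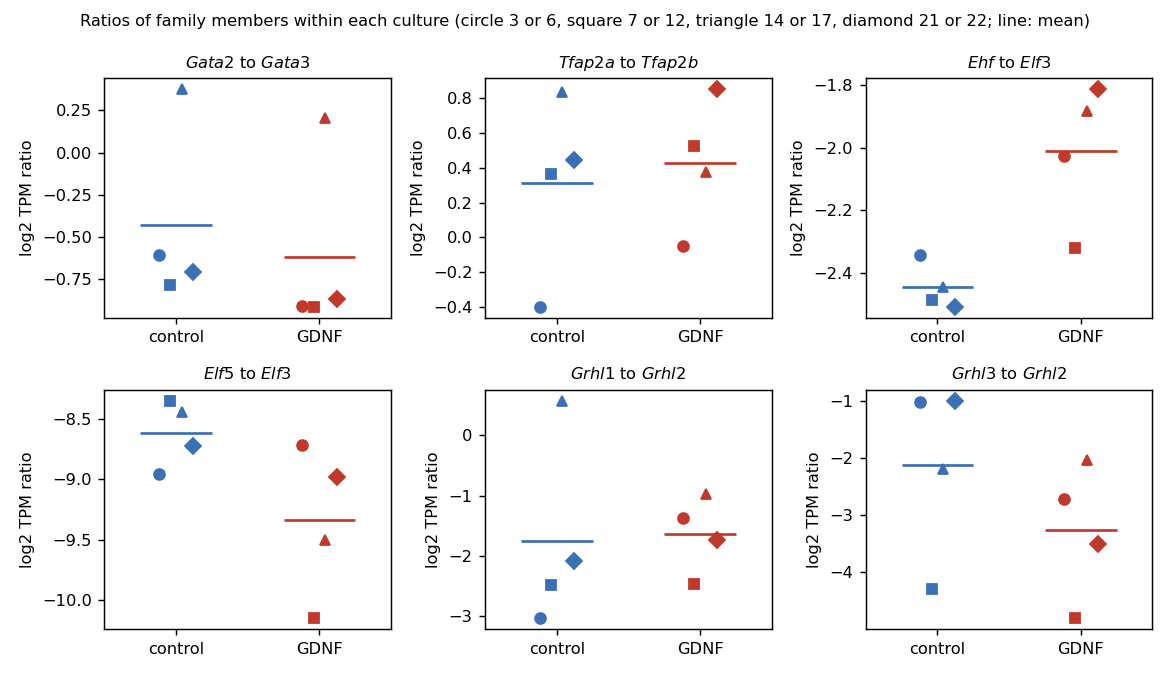
Log2 ratio of the TPM of 2 family members within each culture (vertical) for control (blue) and GDNF (red) cultures, in 6 panels with lines at the group means. *Ehf* to *Elf3* is the panel in which the groups do not touch (means -2.45 and -2.01), and the triangles of control 14 (0.37) and GDNF 17 (0.20) stand above 0 for *Gata2* to *Gata3*.

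Across the 8 cultures 6 members, *Gata3*, *Tfap2a*, *Tfap2b*, *Ehf*, *Elf3* and *Grhl2*, had similar profiles, and *Gata2*, *Elf5*, *Grhl1* and *Grhl3* lay farther from most of these. The profile of each gene was its log2 CPM centred on its own mean, and the distance of a pair was the root mean square difference of their profiles over the 8 cultures, which share libraries and scaling. *Tfap2a* and *Ehf* were the closest of the 45 pairs (0.16), followed by *Ehf* and *Elf3* (0.26), *Gata3* and *Tfap2a* (0.28), and *Tfap2a* and *Elf3* (0.30). Of these 4 pairs, 1 joined members of the same family. The median distance was 0.60 over the 8 pairs within a family and 0.74 over the 37 pairs between families. *Gata2* and *Gata3* were 0.48 apart, less than *Gata3* and *Tfap2b* among the 6 similar members (0.54), and *Elf3* and *Elf5* were 0.54 apart. *Grhl1* and *Grhl2* were 1.05 apart, and *Grhl1* and *Grhl3* 1.54, the widest of all. *Gata2* and *Grhl1*, from different families, were 0.40 apart.

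The spread of log2 CPM over the 8 cultures was 0.20 (SD) for *Gata2*, below the median of 0.33 over all genes, and 0.54 for *Grhl1*, 0.61 for *Gata3* and 1.48 for *Grhl3*. The other 6 members had an SD between 0.88 and 1.02. Control 14 held the lowest CPM of 7 members, control 3 that of *Gata2* and *Grhl1*, and GDNF 17 that of *Elf5*, while GDNF 6 held the highest CPM of 6 members. Relative to the geometric mean of the 13 epithelial markers in the same culture, *Ehf* was at 15.4 ± 4.80% in controls and 30.1 ± 7.40% in GDNF cultures (SD, n = 4, exact permutation test, p = 0.0571), and *Grhl2* at 6.37 ± 2.43% and 12 ± 2.46% (p = 0.0571, same exact test). *Tfap2a* gave the same p, at 2.66 ± 1.06% and 5.0 ± 1.07%, and *Gata3* was at 18.8 ± 8.45% and 30.1 ± 5.51% (p = 0.0857, same exact test). *Gata2* and *Grhl1* no longer stood apart on this scale, with p = 0.629 and 0.429 in the exact test. Those markers include the keratins *Krt8* and *Krt7*, which were at 673 and 605 TPM in control 3 and 1259 and 1079 TPM in control 21 and did not exceed 299 and 317 TPM in any GDNF culture.

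**Figure D4:**
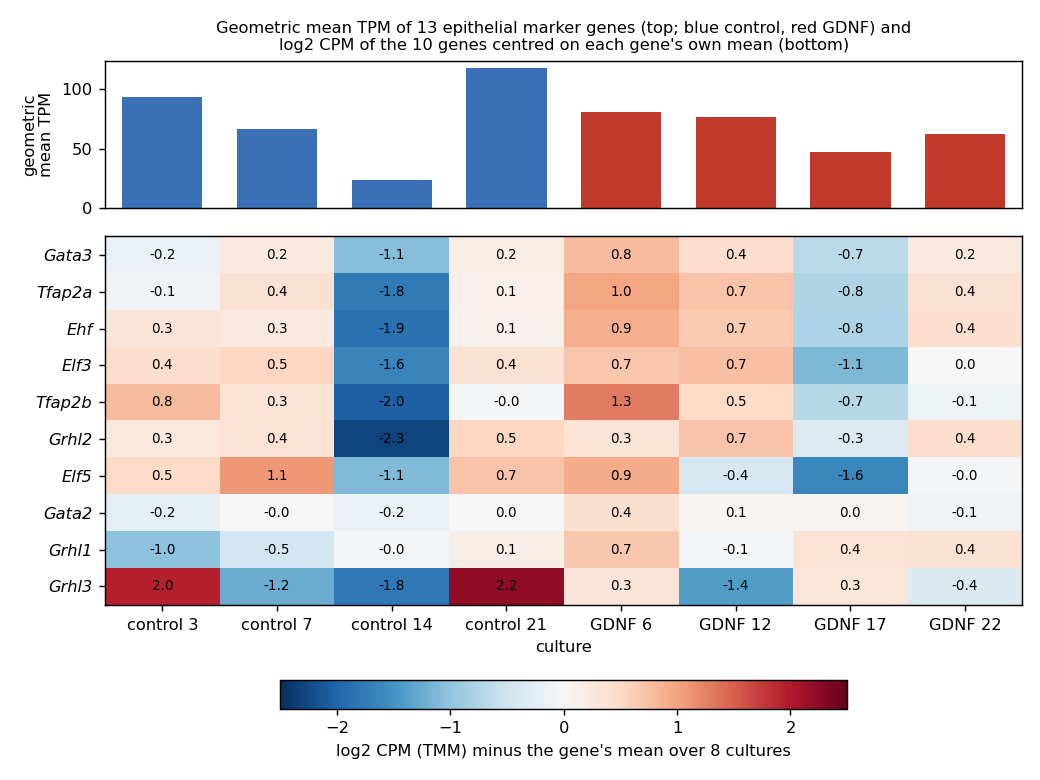
Geometric mean TPM of 13 epithelial marker genes in each culture (top, bars from 0) and log2 CPM of the 10 genes minus each gene's own mean (bottom, color and printed value). Control 14 is lowest in the bars (23.6 TPM) and blue for *Gata3*, *Tfap2a*, *Ehf*, *Elf3*, *Tfap2b* and *Grhl2*, whereas *Gata2* stays near 0 in every culture and *Grhl3* is red in controls 3 and 21.

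For each member but *Elf5*, the 2 genes with the most similar profile were sought among 11453 genes at a mean CPM of 5 or more. For *Gata2* these were *BC024978* (distance 0.06) and *Kdm2b* (0.07), and for *Gata3* they were *Tmc4* (0.11) and *Chka* (0.13). *Tfap2a* was nearest to *Gyltl1b* (0.15) and *Coro2a* (0.16), and *Tfap2b* to *Tmem184a* (0.20) and *Fgf9* (0.20). *Ehf* was nearest to *Eya2* (0.10) and, like *Tfap2a*, to *Coro2a* (0.17), and *Elf3* to *Ncmap* (0.16) and *Ildr1* (0.17), the latter a component of tricellular tight junctions. *Grhl1* was nearest to *Ankle1* (0.13) and *Zc3h8* (0.15), *Grhl2* to the tight junction gene *Cgn* (0.16) and *Myo5c* (0.16), and *Grhl3* to *Ptpn22* (0.38) and the mesothelial and epithelial surface gene *Msln* (0.40). Each of these genes stayed among the 20 nearest in all 8 sets that left out 1 culture. Those sets share all but 1 culture with the set the genes were picked on, so this is not an independent check.

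Relatives and partners of the 4 families gave no call at an adjusted p of 0.05 in edgeR's quasi-likelihood test. Of 6 other GATA genes and FOG cofactors, 3 were tested and 2 were higher, with *Zfpm2* at a log2 fold change of 0.58 ± 0.31 (SE) and *Zfpm1* at 0.21 ± 0.27. *Gata6*, the one other GATA gene with a mean of 1 TPM or more, was at 3.24 ± 1.98 TPM in controls and 3.80 ± 1.86 TPM in GDNF cultures, below *Gata2* and *Gata3*. Of 8 AP-2 relatives, coactivators and KCTD inhibitors, 6 were tested, 2 were higher and 4 lower. The coactivator *Cited2* (27.1 ± 2.99 and 33.0 ± 2.95 TPM) and the inhibitor *Kctd15* (6.78 ± 1.72 and 9.16 ± 1.16 TPM) were more abundant than the AP-2 genes themselves, and the log2 fold changes of *Cited2* and *Cited1* were -0.15 ± 0.18 and -0.24 ± 0.71 (SE).

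Of 21 other ETS genes, 17 were tested, 10 were higher and 7 lower. *Ets2* (21 ± 8.40 and 24.2 ± 3.01 TPM) and *Elk3* (20.1 ± 2.65 and 22.4 ± 5.39 TPM) were the most abundant of them, both below *Elf3*. The repressor *Etv3*, named for the smallest p of its list, had a log2 fold change of 0.54 ± 0.17 (SE, adjusted p = 0.167, edgeR), with every GDNF culture above every control in CPM, and *Etv6* one of 0.38 ± 0.19. Such a separation in CPM held for 2 of the 17 tested ETS genes, against 6.99% of all genes. Correcting for length and GC content lowered the values of *Etv3* and *Etv6* to 0.25 and 0.09, and those of *Zfpm2*, *Sall1* and *Gfra1* to 0.32, 0.47 and 0.33. Of the 3 CP2 genes, which share the grainyhead DNA-binding fold, all 3 were higher in GDNF cultures, with *Ubp1* at 0.46 ± 0.17 (adjusted p = 0.173, edgeR) and *Tfcp2* at 0.26 ± 0.13. *Ubp1* was the 1 of the 3 without overlap in CPM, also against 6.99% of all genes.

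Epithelial genes known to be under grainyhead or epithelial ETS control gave mostly lower estimates in the GDNF cultures, without a call. Of 20 such genes, all tested, 6 were higher and 14 lower, with a median log2 fold change of -0.29 against 0.33 for the 10 members. General epithelial markers, 6 of which are also in that list, gave lower estimates as well, for 10 of 13 with a median of -0.68, and a difference between the lists was not tested. The tight junction gene *Cldn4* had the smallest p, with a log2 fold change of -1.15 ± 0.45 (SE, adjusted p = 0.191, edgeR), which was -0.60 without control 3 and -0.61 with limma-voom, followed by the transglutaminase *Tgm1* at -0.74 ± 0.46, and *Cdh1* and *Epcam* were at -0.28 ± 0.47 and -0.54 ± 0.40. Of 12 genes of the GATA3 and GDNF-RET axis of the nephric duct, all tested, 12 had a higher estimate in GDNF cultures, against 52.5% of all genes with a higher mean CPM. Their log2 fold changes ranged from 0.05 to 0.92, with a median of 0.31. *Etv4* and *Etv5* are also among the other ETS genes counted above. Of the 12, 3 were under an unadjusted p of 0.05 in edgeR's test, against 22.1% of all genes in either direction and 9.25% in the higher one. *Sall1* was first, at 7.75 ± 1.87 TPM in controls and 16.7 ± 3.59 TPM in GDNF cultures (log2 fold change 0.73 ± 0.20, SE, adjusted p = 0.167 with edgeR and 0.0393 with DESeq2). The GDNF co-receptor gene *Gfra1* was next, with a log2 fold change of 0.57 ± 0.21 (adjusted p = 0.183, edgeR), while *Ret* itself was at 0.992 ± 0.546 and 1.70 ± 0.532 TPM.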

How the data were processed

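RNA-Seq of 8 tubuloid cultures was analysed, with groups and culture numbers taken from the sample titles. RNA was converted to libraries by a poly-A-based SMART-Seq v4 protocol. The authors aligned reads with STAR to mm10 (GRCm38) on the BasePair platform, and the submitters' processing notes also name featureCounts and DESeq2. Versions and strand handling are not given in the sources used here. The deposited counts are whole numbers for 33068 RefSeq transcripts without normalization, and the deposited TPM was scaled by the authors for length and then to one common total. The deposited FPKM served to derive the length of each transcript (100% of implied lengths whole within 0.01). How reads shared between transcripts were counted is not given in the sources used here. Transcripts of one gene often had nearly equal counts (7158 and 7148 for *Elf3* in control 3), so sums over transcripts may hold a read more than once. No pair of cultures was close to sampling noise, and since the labels do not say that cultures came from separate animals, p-values measure the spread between these cultures.

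Counts were summed per symbol and compared in R 4.3.3 by edgeR 4.0.16 (filterByExpr, TMM, glmQLFit, glmQLFTest, group as the only term) on 16557 genes, with Benjamini-Hochberg adjustment over all of them and a threshold of 0.05. All 10 members passed the filter. The standard error is the absolute log2 fold change divided by the square root of F. Single values were compared by exact permutation tests, two-sided, over 70 assignments (smallest p 0.0286) or 256 sign changes. Log2 CPM for profiles used a prior count of 1. Rescaled TPM is TPM with a factor for composition. Promoters came from the RefSeq table of GRCm38.p6 and were searched on both strands. Exons of GENCODE release M21 were used to keep transcribed bases out of the printed windows.

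Genes named besides the members are the 2 most abundant of each family list, the 2 with the smallest unadjusted p of each list with a mean of at least 1 CPM, fixed marker genes and the 2 nearest profiles. *Ret*, *Krt7*, *Krt8*, *Fxyd4*, *Calb1*, *Avpr2*, *Hsd11b2*, *Scnn1b* and *Scnn1g* were added after their values were seen. *Etv4* and *Etv5* are named only because both the ETS and the duct list hold them. The members and lists were chosen with earlier results of these data known. Alternatives were DESeq2 1.42.0, limma 3.58.1 (voom, quality weights), other scalings, filters and units, a length or length and GC correction (spline with 5 degrees of freedom, GC known for 99.3% of genes), the kind of culture as a covariate, and leaving out each culture in turn. Leaving out control 14 and GDNF 17 together and the counts within kinds of culture were added after seeing the data. On simulated counts of 16557 genes for this comparison, edgeR recovered 19% of 200 genes changed 2-fold and 86% changed 4-fold. Figures and exact tests used Python 3.11.15 with SciPy 1.17.1 and matplotlib 3.10.9. The cell type marker lists for intercalated cells, distal nephron, proximal tubule, podocytes, endothelium and immune cells were low or variable: their summed TPM ranged over the 8 cultures from 3.14 to 10.5, 0.576 to 4.50, 5.31 to 15.3, 12.2 to 96.2, 33.7 to 145 and 5.56 to 41.4, that of collecting duct from 124 to 1095 and that of urothelium from 1.16 to 2.63. Most of the collecting duct sum was *Krt7* (115 to 1079 TPM), which is also in the epithelial marker list.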

Additional observations from a re-analysis of the deposited data

Results flagged for a closer look

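Of 32 sets of 4 values examined (the TPM and the within-family log2 ratios of the members in each group), 2 held a culture far from the other 3 by Dixon's criterion, which chance meets in about 1 set in 20. Both were the log2 ratio of *Gata2* to *Gata3*. In the controls it was 0.37 in culture 14, against -0.78 to -0.60 in the other 3 cultures. In the GDNF cultures it was 0.20 in culture 17, against -0.91 to -0.86 in the other 3.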

How the results depend on the processing

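The 2 groups share no culture numbers, the labels name no pairs, and no paired analysis was run. In counts over all genes, the GDNF cultures nearest to controls 3, 7, 14 and 21 were 6, 12, 17 and 22 in turn. Both cultures of each such pair were of the same kind by *Xist* and Y-linked RNA. Whether they came from matched preparations was not tested. In CPM, *Gata3*, *Tfap2a*, *Ehf* and *Grhl1* were higher in the GDNF culture of every such pair, unlike the other members. Tests between the groups ignored any pairing. No setting changed the count of 0 members at an adjusted p of 0.05 or the 4 of 9 neighbours in the order of levels by more than 1.5 times. DESeq2 called 1057 genes at an adjusted p of 0.05, where edgeR called 0. On simulated counts with 2-fold changes in 200 of 16557 genes, DESeq2 recovered 59.5% of the changed genes and edgeR 19%. Unchanged genes made up 24.7% of DESeq2's calls there and 2.56% of edgeR's. That share depends on how many genes change, so it does not carry over to the real cultures. Genes at an unadjusted p of 0.05 numbered 3665, and 2192 to 4104 when each culture was left out in turn (2359 without control 3, 2321 without GDNF 12, 2192 without GDNF 22). The 1 member at an unadjusted p of 0.05, *Grhl1*, fell to 0 with DESeq2-type size factors (RLE), limma-voom with quality weights, 1 transcript per gene, the length correction and the length and GC correction, and became 2 with library size only (*Grhl1*, *Gata2*) and with control 14 and GDNF 17 left out together (*Ehf*, *Grhl3*). When each culture was left out in turn it was 0 to 2 (0 without control 3 or 7 or GDNF 6, 17 or 22, 2 without control 14, *Grhl1* and *Grhl3*). Over all genes, 4149 were under that p with library size only and 3610 without control 14. The 2 members past the exact test on TPM became 0 in CPM, 0 in rescaled TPM and 0 relative to epithelial markers, and 0 to 4 when each culture was left out (1 without control 3, 7, 14 or 21 or GDNF 22, 0 without GDNF 6, 4 without GDNF 17, namely *Gata2*, *Gata3*, *Tfap2a* and *Ehf*). The 1 ratio past the test became 0 to 2 (0 without any 1 control, 2 without GDNF 6). Log2 fold changes that turned when 1 culture was left out, with the range over those sets, were *Tfap2b* (-0.10 without GDNF 6, range -0.10 to 0.70), *Elf3* (-0.19 without control 14, -0.07 without GDNF 6, -0.10 without GDNF 12, range -0.19 to 0.38), *Grhl2* (-0.045 without control 14, up to 0.47), *Cited2* (0.051 without control 3, down to -0.25), *Cdh1* (0.10 without control 21, down to -0.61) and *Cited1* (0.47 without control 3, 0.056 without GDNF 22, down to -0.71 without control 14 and GDNF 17 together). By setting, *Cited2* turned with library size only (0.10), *Cdh1* with limma-voom (0.075), and *Cited1* with library size only (0.051), limma-voom (0.20), kind of culture as covariate (0.26), the length (0.11) and the length and GC corrections (0.0071). The TPM difference of *Elf5* turned to 0.021 without control 7, 0.00034 without control 21 and 0.019 without GDNF 17 (range -0.053 to 0.021). Log2 ratio differences turned for *Tfap2a* to *Tfap2b* (-0.12 without control 3, -0.026 without GDNF 22, up to 0.29), *Grhl1* to *Grhl2* (-0.30 without control 3, -0.12 without control 7, -0.10 without GDNF 17, up to 0.89) and *Gata2* to *Gata3* (0.079 without control 14, down to -0.46). The causes were not tested. Depth limits *Elf5*, which had 5 to 34 counts per culture.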
